A study of Mus musculus with 44 samples.

Results

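Kidneys of Bmal1 knockout (KO) and wild-type (WT) mice were compared at zeitgeber times (ZT) 4 and 8, hours counted from lights on. These are 8 RNA libraries, 2 per genotype and time, of 24 kidney RNA libraries taken at 6 times and of 44 samples in the series. They were chosen by the time and genotype in their labels, not by a measured value. All 8 came from 129SV mice of 8 to 12 weeks on night-restricted feeding, so both times fall in the hours without food. The KO mice are labelled KO or BmalKO, which the series design text gives as Bmal -/-. No allele, sex or number of mice per library is named. RNA was selected by poly(A) tail. The libraries of a group carry the letters A and B, and nothing states that they came from separate mice, so p-values measure the spread between these libraries. Values are TPM, transcript abundances corrected for length and scaled to the same total in each library, so the sequencing depth is unknown.

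BMAL1, the product of Arntl, pairs with CLOCK or NPAS2 and switches on genes through E-box sequences. Among them are the Per and Cry repressors, which shut the pair off again, the REV-ERB repressors Nr1d1 and Nr1d2, and the PAR bZIP activators Dbp, Tef and Hlf. REV-ERB proteins compete with ROR activators on ROR elements, found at genes such as Arntl, Cry1 and Nfil3, and NFIL3 opposes the PAR bZIP factors on D-box sequences. In mouse kidney this oscillator is known for daily rhythms in sodium and water handling and in drug transport.

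The libraries were checked first. Between 12600 and 12865 genes reached 1 TPM per library, and the 2 libraries of a group correlated at 0.945 to 0.959 across genes, which are not independent replicates. Kidney markers were present throughout: 8 proximal tubule markers summed to 3823 to 4589 TPM and 5 podocyte markers to 73.8 to 103.5 TPM, while 3 skeletal muscle markers stayed under 1 TPM. Adipocyte markers (5 genes) summed to 2.66 to 18.7 TPM in WT and 0.103 to 4.00 TPM in KO, and both brown adipocyte markers together to 0.743 to 11.5 TPM in WT and 0.0488 to 1.15 TPM in KO. Urothelial markers (5 genes) stood at 108.3 TPM in KO ZT8 replicate A and 5.45 to 14.3 TPM in the other 7 libraries, and 5 erythroid markers at 2385 TPM in KO ZT4 replicate B against 826.1 to 1548 TPM in the rest. The 13 mitochondrially encoded genes took 40.7% to 42.3% of TPM in WT, 40.3% in KO ZT4 replicate A, and 32.3% to 37.7% in the other 3 KO libraries. Their part in the results below was not tested.

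The library labelled KO ZT4 replicate A went against its label. Along the leading principal component (29.6% of variance), WT libraries lay between -39.1 and -10.1 and the other 3 KO libraries between 30.1 and 38.9, while this library lay at 0.620. Cry1, which is held down by REV-ERB and PER-CRY action, stood at 1.03 TPM there, against 0.551 to 1.20 TPM in WT and 11.5 to 13.6 TPM in the other 3 KO libraries. To place it across genes, its distance from the WT mean at ZT4 was divided by the distance of KO ZT4 replicate B from that mean, on the log2 scale. Among 327 genes that changed by at least 1 log2 unit without it (defined below), the median position was 0.119. It was nearer to the WT mean in 307 of them, at a position below 0.25 in 240. It was nearer to KO ZT4 replicate B in 20, among them the processed pseudogenes Rps15a-ps8, Mrps36-ps2 and Gm16053, the immunoglobulin gene Ighm and Ndrg1. These 5 were picked after their values were seen. The 327 genes were chosen in a fit that used the libraries at both ends of this scale and left KO ZT4 replicate A out. That choice favours genes in which the ends lie far apart, and can by itself draw a library left out towards the WT end. No other KO library was placed in this way, so the part of the choice in the position of KO ZT4 replicate A was not tested. The library is kept under its label, and each comparison is given with all 8 libraries and with the 7 others.

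**Figure D1:**
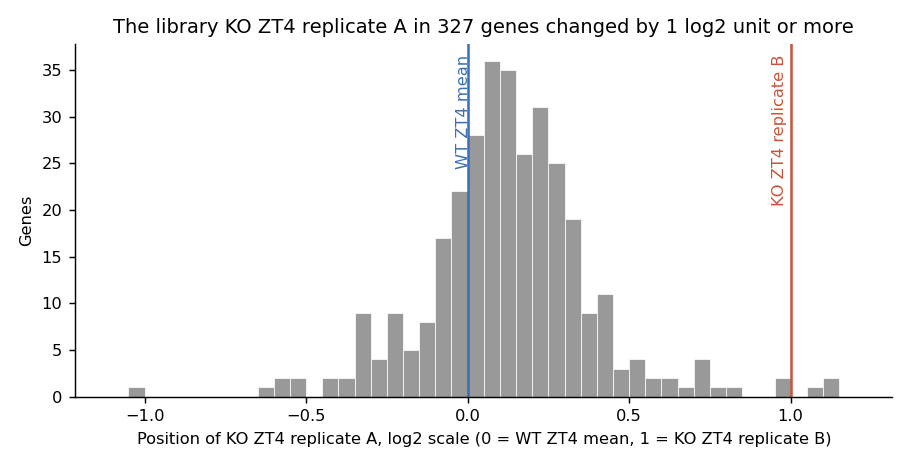
Histogram of the position of the library labelled KO ZT4 replicate A in 327 genes that changed by at least 1 log2 unit in the fit without it; the x axis runs from 0 (WT mean at ZT4) to 1 (KO ZT4 replicate B) on the log2 scale and the y axis counts genes. Most genes sit near 0, with a median of 0.119, and 20 genes lie nearer to 1. The fit that chose the genes used the libraries at both ends of the axis, and no other KO library was placed for comparison.

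Genotype was tested with time as a covariate by limma on log2(TPM + 0.1), a scale that understates the change of low genes, with Benjamini-Hochberg adjustment over all genes and 0.05 as the threshold. With all 8 libraries, 3 of 12915 genes passed (0.0232%), 2 higher and 1 lower in KO, although 3725 had an unadjusted p under 0.05. No protein-coding gene passed, and the smallest adjusted p among them was 0.102. Without KO ZT4 replicate A, 3211 of 12933 genes passed (24.8%), of which 2725 were higher (21.1% of genes tested) and 486 lower (3.76%). The median absolute change among them was 0.44 log2 units. Leaving out any other single library gave 0 to 7 genes, and leaving out a further library beside KO ZT4 replicate A gave 1333 (without KO ZT4 replicate B) to 2689 (without KO ZT8 replicate A), with 1430 without WT ZT8 replicate A and 1850 without WT ZT8 replicate B. The fit without either KO ZT4 library holds no KO value at ZT4, so it compares the genotypes at ZT8 alone. Of the 3211, 327 (2.53% of genes tested) changed by 1 log2 unit or more, 188 upward and 139 downward, and 298 of the 327 were protein coding.

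The direction of small changes depended on the scaling. The median log2 change over all genes tested was 0.119 with 8 libraries and 0.156 with 7, and 0.0054 and 0.0079 after median-of-ratios scaling, which sets the typical gene near 0. With 7 libraries scaled this way, 1624 genes passed (12.6%), 778 higher (6.02%) and 846 lower (6.54%). The share of higher genes thus went from 84.9% to 47.9%. It was 56.1% when each library was rescaled without the 20 genes most abundant on average over the fitted libraries. Both scalings shared 1254 genes, all with the same sign, and 298 of the 327 genes changed by at least 1 log2 unit kept their call and sign. Changes below are given as deposited and are to be read against the shift of 0.156.

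Of the 115 genes named here and in the closing observations that passed without KO ZT4 replicate A, 91 also passed after median-of-ratios scaling. In the 7 fits that left out a further library, 74 passed each time, 20 in 4 to 6 fits and 21 in 3 or fewer. Sirt5 passed in none of them, Aqp1, Ndrg1 and Sesn1 in 1, Abcc2, Bst2, Cry2, Cyp4a14, G6pc, Ighm, Mt2, Myc, Per3 and Slc16a1 in 2, and Acaca, Clock, Cyp24a1, Hadha, Parp1, Slc13a3 and mt-Nd5 in 3. Calls were lost in 29 genes without KO ZT4 replicate B, 29 without WT ZT8 replicate A, 26 without WT ZT8 replicate B, 18 without WT ZT4 replicate B, 18 without KO ZT8 replicate B, 13 without KO ZT8 replicate A and 10 without WT ZT4 replicate A. The fit without KO ZT4 replicate B compares the genotypes at ZT8 alone, as said above.

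**Figure D2:**
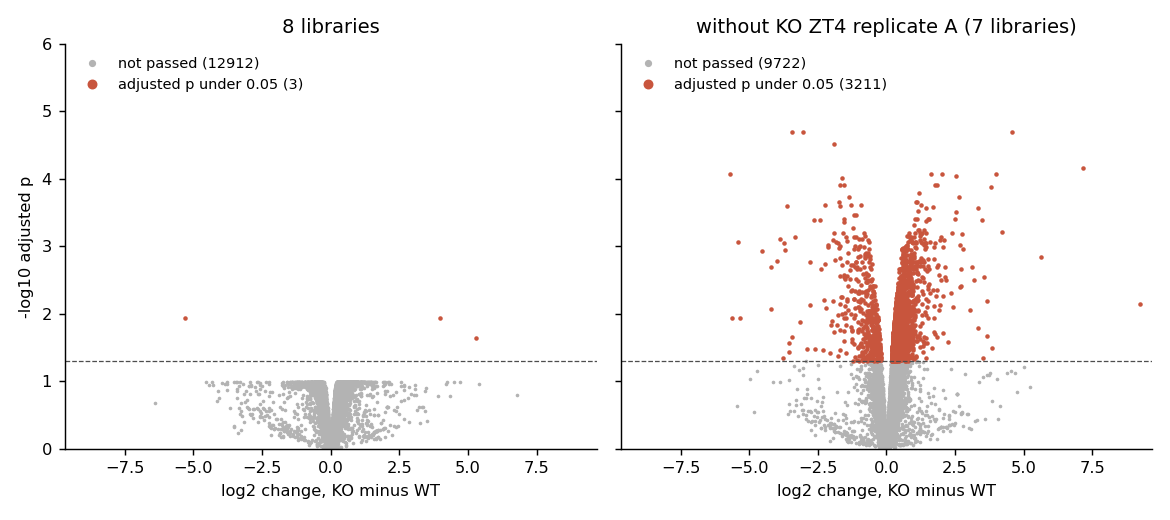
Log2 change of KO minus WT (x axis) against -log10 of the adjusted p (y axis) for each gene tested, with all 8 libraries on the left and without KO ZT4 replicate A on the right; the dashed line marks an adjusted p of 0.05. In the left panel 3 genes lie above the line and in the right panel 3211.

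Arntl, the targeted gene (ENSMUSG00000055116, GRCm38 chromosome 7, 113207465 to 113314126, plus strand), was still counted in KO. WT libraries held 6.16 and 4.71 TPM at ZT4 and 0.690 and 0.527 TPM at ZT8. KO libraries held 6.28 TPM (replicate A) and 4.98 TPM (replicate B) at ZT4, and 5.66 and 5.00 TPM at ZT8. The genotypes overlapped at ZT4 and stood apart at ZT8, where WT was low. The table carries 1 Arntl transcript and does not say whether the deleted exons are in it, so these values check no genotype label, that of KO ZT4 replicate A included. Over both times the change was 1.50 log2 units (SE 0.61, adjusted p 0.169) with 8 libraries and 1.72 (SE 0.68, adjusted p 0.125) with 7.

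Of 20 clock genes, 18 were tested, since Bhlhe41 and Rorb had means under 1 TPM. With 8 libraries none of the 18 passed in limma, against 0.0232% of all genes, and 13 had an unadjusted p under 0.05. With 7 libraries 6 were higher, among them Cry1, Nfil3 and Npas2, and 3 were lower (Nr1d2, Nr1d1 and Per3), together 9 of 18 against 24.8% of all genes. After median-of-ratios scaling the split was 4 higher and 5 lower. Their median log2 change was -0.069, against 0.156 over all genes.

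The promoters of clock genes are shown here so that the elements of the loop can be read beside the values of the genes that carry them. Promoters are 300 bases, from 250 before to 50 after the start of transcription, from RefSeq on build GRCm38.p6, and 17 of the 20 clock genes matched. Both strands were searched for the E-box CACGTG, held by 7.15% of all 32851 promoters, its variant CACGTT (4.68%), the D-boxes TTATGTAA and TTACGTAA (1.06%) and the ROR element TAGGTCA (2.61%). An E-box was found in 5 of the 17 genes (Per1, Cry1, Ciart, Bhlhe41 and Tef), the variant in 4 (Cry1, Cry2, Nr1d1 and Rorb), a D-box in Per3 and a ROR element in Arntl and Nfil3. These counts take a match in any promoter of a gene. Counted in that way over all 27025 genes, 8.09% held an E-box, 5.44% the variant, 1.23% a D-box and 2.97% a ROR element. A match is a description of letters and no more. In the sequences below, 5′ to 3′ on the strand of the gene, capitals mark the matches. Cry1 and Nfil3 were higher in KO, and Nr1d1 and Per3 lower. Ciart, with 3 E-boxes, did not pass over both times and was lower in KO at ZT8.
Cry1 (chr10:85185005-85185304, minus strand): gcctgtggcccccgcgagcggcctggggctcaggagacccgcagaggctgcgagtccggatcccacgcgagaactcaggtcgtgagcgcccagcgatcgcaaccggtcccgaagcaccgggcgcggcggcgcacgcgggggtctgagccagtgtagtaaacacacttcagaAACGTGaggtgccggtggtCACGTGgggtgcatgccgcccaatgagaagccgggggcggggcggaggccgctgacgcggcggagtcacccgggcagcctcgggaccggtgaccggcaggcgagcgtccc
Nfil3 (chr13:52980990-52981289, minus strand): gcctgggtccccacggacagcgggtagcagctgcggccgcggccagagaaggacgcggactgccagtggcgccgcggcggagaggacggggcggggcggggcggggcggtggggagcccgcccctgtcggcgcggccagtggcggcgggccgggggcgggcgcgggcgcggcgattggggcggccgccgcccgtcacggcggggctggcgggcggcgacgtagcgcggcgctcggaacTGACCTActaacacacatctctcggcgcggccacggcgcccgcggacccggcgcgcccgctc
Nr1d1 (chr11:98775328-98775627, minus strand): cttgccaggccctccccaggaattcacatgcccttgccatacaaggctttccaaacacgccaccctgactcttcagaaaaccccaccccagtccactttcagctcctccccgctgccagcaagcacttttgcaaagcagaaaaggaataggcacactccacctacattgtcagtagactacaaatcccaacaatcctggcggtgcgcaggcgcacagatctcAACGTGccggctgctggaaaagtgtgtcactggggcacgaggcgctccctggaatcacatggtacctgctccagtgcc
Per3 (chr4:151044616-151044915, minus strand): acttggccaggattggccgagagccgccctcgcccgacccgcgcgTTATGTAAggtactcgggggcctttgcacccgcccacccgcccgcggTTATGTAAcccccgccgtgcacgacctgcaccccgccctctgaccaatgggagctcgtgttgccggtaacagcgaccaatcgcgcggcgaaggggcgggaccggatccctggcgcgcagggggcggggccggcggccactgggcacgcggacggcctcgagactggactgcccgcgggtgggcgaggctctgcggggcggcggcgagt
Ciart (chr3:95882179-95882478, minus strand): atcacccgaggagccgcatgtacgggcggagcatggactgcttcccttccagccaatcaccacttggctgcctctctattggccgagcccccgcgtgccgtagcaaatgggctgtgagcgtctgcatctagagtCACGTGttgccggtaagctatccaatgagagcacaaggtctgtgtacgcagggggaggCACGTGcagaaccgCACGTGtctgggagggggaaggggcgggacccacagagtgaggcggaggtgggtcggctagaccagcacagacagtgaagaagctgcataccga

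Both partners of BMAL1 were higher in KO. Npas2, the paralogue of CLOCK, stood at 5.41 and 5.21 TPM in WT at ZT4 and 1.44 and 0.598 TPM at ZT8. KO libraries held 21.8 TPM at ZT4 (replicate B) and 18.1 and 19.9 TPM at ZT8, while KO ZT4 replicate A held 6.68 TPM. The groups did not overlap even with that library, which lay just above WT at ZT4. The change was 2.69 log2 units (adjusted p 0.115) with 8 libraries and 3.33 (SE 0.55, adjusted p 0.0161) with 7, though not without WT ZT8 replicate A or KO ZT8 replicate A as well (highest adjusted p 0.0656). Clock itself held 4.71 to 6.71 TPM in WT and 5.92 to 8.71 TPM in the 3 KO libraries, which overlap, a change of 0.44 (SE 0.10, adjusted p 0.0242). That call was lost after median-of-ratios scaling (adjusted p 0.0869) and in 4 of the 7 fits that left out a further library.

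Among the repressors Cry1 and, as deposited, Cry2 rose, and Per3 fell. Cry1 stood at 1.20 and 0.845 TPM in WT at ZT4 and 0.551 and 0.930 TPM at ZT8, and at 13.6, 12.7 and 11.5 TPM in KO ZT4 replicate B and both KO ZT8 libraries. These 3 libraries lay far above every WT library, and the mean was 14.3 times the WT mean (log2 change 3.79, SE 0.20, adjusted p 0.000132). With KO ZT4 replicate A the change was 2.86 and did not pass (adjusted p 0.120). Cry2 held 3.33 to 7.41 TPM in WT and 8.74 to 10.9 TPM in KO (log2 change 0.84, adjusted p 0.0432), with no overlap, but did not pass after median-of-ratios scaling (adjusted p 0.0842) and passed in only 2 of the 7 fits with a further library left out. Per3 held 2.08 and 2.95 TPM at ZT4 and 8.74 and 11.0 TPM at ZT8 in WT, against 1.67 TPM at ZT4 and 1.36 and 1.77 TPM at ZT8 in KO. It was lower in all 3 KO libraries (log2 change -1.77, SE 0.46, adjusted p 0.0421), and passed in 2 of those 7 fits. In WT both ZT8 libraries lay above both ZT4 libraries, while the KO libraries of both times lay within 1.36 to 1.77 TPM.

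The period genes Per1 and Per2 did not pass. Per1 was higher at ZT8 than at ZT4 in both genotypes, at 6.85 and 7.56 TPM against 1.82 and 2.19 TPM in WT and 5.97 and 5.96 TPM against 2.74 TPM (replicate B) in KO. Its change was 0.015 (SE 0.16, adjusted p 0.955) with 7 libraries and -0.050 with 8, so its sign turned with that library. Per2 held 7.28 to 21.1 TPM in WT and 9.88 to 13.3 TPM in KO (log2 change -0.15, adjusted p 0.715). Ciart, a repressor of CLOCK and BMAL1, held 0.822 and 1.045 TPM at ZT4 and 10.9 and 12.1 TPM at ZT8 in WT, and 0.740 TPM at ZT4 and 0.394 and 0.981 TPM at ZT8 in KO. KO lay just below WT at ZT4 and far below it at ZT8. Bhlhe40, which binds E-boxes as a repressor, did not pass over both times (log2 change -0.17, adjusted p 0.703).

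The REV-ERB genes and Nfil3 differed between genotypes without KO ZT4 replicate A. Nr1d1, which encodes REV-ERB alpha, stood at 22.0 and 33.0 TPM at ZT4 and 44.3 and 38.4 TPM at ZT8 in WT and at 2.75, 2.30 and 1.81 TPM in the 3 KO libraries. Its WT mean was 15.1 times the KO mean (log2 change -3.86, SE 0.26, adjusted p 0.000770), and KO ZT4 replicate A held 23.8 TPM. Nr1d2, REV-ERB beta, held 14.9 and 20.6 TPM at ZT4 and 28.4 and 34.3 TPM at ZT8 in WT and 2.20, 1.94 and 3.21 TPM in KO (log2 change -3.33, SE 0.24, adjusted p 0.000737). Both were low in KO at hours at which they were high in WT, with no overlap. Nfil3 held 4.03 and 1.95 TPM at ZT4 and 0.791 and 0.634 TPM at ZT8 in WT and 11.6, 10.4 and 11.2 TPM in KO (log2 change 3.05, SE 0.44, adjusted p 0.00886). Nr1d1, Nr1d2, Nfil3 and Cry1 passed in all 7 fits that left out a further library. Rora did not pass (log2 change -0.32, adjusted p 0.0601), but did after median-of-ratios scaling (-0.46, adjusted p 0.0182).

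No PAR bZIP gene passed over both times in limma, though 2 of the 3 had an unadjusted p under 0.05 with 8 and with 7 libraries. Dbp, the E-box driven activator of detoxification genes, held 5.88 and 11.1 TPM at ZT4 and 56.1 and 65.2 TPM at ZT8 in WT, and 3.65, 2.71 and 4.201 TPM in the 3 KO libraries. KO lay below WT at both times, most at ZT8, and the change over both was -2.93 log2 units (SE 0.74, adjusted p 0.0506). Tef held 83.3 and 104 TPM at ZT4 and 185 and 219 TPM at ZT8 in WT and 73.9 to 83.3 TPM in KO (log2 change -0.93, adjusted p 0.0662), and passed after median-of-ratios scaling (adjusted p 0.0431). Hlf overlapped between genotypes (0.22, adjusted p 0.723).

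Dbp, Tef, Ciart and Arntl passed at ZT8. In the fit of 7 libraries 1353 genes passed at ZT8 (10.5%) and 269 at ZT4 (2.08%), where KO had 1 library left, assumed to vary like the other groups. At ZT8 Ciart changed by -3.98 on the log2 scale (adjusted p 0.00602), Dbp by -4.12 (adjusted p 0.00845) and Tef by -1.44 (adjusted p 0.00600). Arntl was higher in KO at ZT8 by 2.95 (adjusted p 0.00301), and changed by -0.11 at ZT4 (adjusted p 0.757). The same ZT8 libraries, with spread estimated from all 8, gave 44 genes (0.341%), among them Ciart, Tef and Per3 (each with an adjusted p of 0.00892), Dbp (adjusted p 0.0142) and Arntl (adjusted p 0.00215). These 5 therefore passed at ZT8 without any library being left out. Of Dbp, Tef, Ciart and Arntl, only Arntl passed the test of the difference between ZT8 and ZT4 with 8 libraries (adjusted p 0.0242), and none did without KO ZT4 replicate A (adjusted p 0.117 to 0.688).

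**Figure D3:**
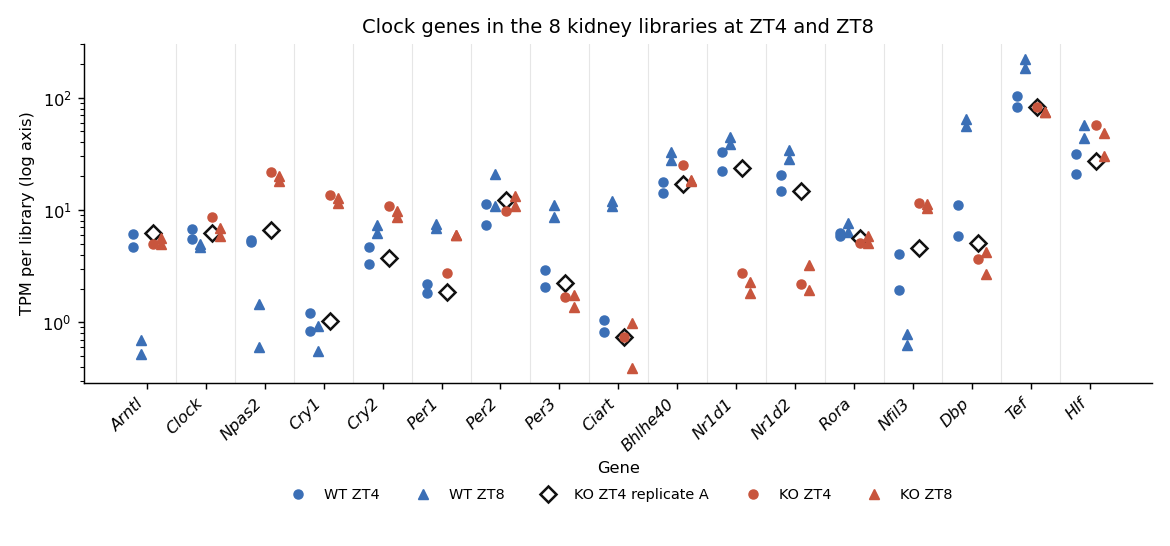
TPM of 17 clock genes (x axis) in each of the 8 libraries on a log y axis; blue is WT, red is KO, circles are ZT4, triangles ZT8, and the open diamond is the library labelled KO ZT4 replicate A. The diamond lies with or next to the blue ZT4 circles for Cry1, Nr1d1 and Nr1d2, at 1.03, 23.8 and 14.7 TPM, where the other 3 KO libraries stand apart.

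The genes called with all 8 libraries were 3 processed pseudogenes, which can share reads with their parent genes. Rps15a-ps8 (ENSMUSG00000084403, chromosome 4, 53791070 to 53791456, minus strand) was listed at 0.0949 to 0.188 TPM in WT and at 1.86 (ZT4 replicate A), 3.12, 5.85 and 4.89 TPM in KO (log2 change 3.97, SE 0.33, adjusted p 0.0116). Mrps36-ps2 was listed at 0 in 3 WT libraries and at 0.129 TPM in the fourth, and at 3.22 (ZT4 replicate A), 10.7, 2.01 and 7.29 TPM in KO (adjusted p 0.0228). Gm16053 was at 2.58, 2.77, 10.2 and 2.94 TPM in WT and listed at 0 in all 4 KO libraries (adjusted p 0.0116). All 4 KO libraries, KO ZT4 replicate A among them, stood apart from WT in these 3 genes. Mrps36-ps2 lies within 10 Mb of Arntl. At the other 4 times Rps15a-ps8 differed (log2 change 4.50, adjusted p 1.83e-06), while Mrps36-ps2 and Gm16053 did not pass there (adjusted p 0.521 and 0.527).

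The 10 protein-coding genes with the smallest p-values without KO ZT4 replicate A, outside the clock list, were Ces1d, Bhmt, Rps13, Cndp2, Car5b, Cyp2a5, Loxl4, Pla2g7, Nat8f2 and Ldhd. None passed with all 8 libraries (adjusted p 0.104 to 0.145), and all 10 passed in each of the 7 fits that left out a further library. Bhmt, which remethylates homocysteine with betaine, held 1.70, 2.26, 2.25 and 1.78 TPM in WT and 49.9, 56.0 and 44.8 TPM in KO, and KO ZT4 replicate A held 2.06 TPM. The KO mean was 25.2 times the WT mean (log2 change 4.59, SE 0.14, adjusted p 1.99e-05). Loxl4, a lysyl oxidase of the matrix, held 0.589 to 1.38 TPM in WT and 12.9 to 15.6 TPM in KO (15.6 times, adjusted p 8.35e-05). Pla2g7, the platelet-activating factor acetylhydrolase, was 4.07 times higher in KO (33.0 to 37.1 TPM against 8.11 to 9.96 TPM), and Car5b, a mitochondrial carbonic anhydrase, 3.04 times (56.0 to 58.0 TPM against 16.7 to 20.9 TPM). WT and KO did not overlap in any of these once that library was set aside. These genes were picked by p-value, and the share of all genes tested whose ranges stood apart was not counted.

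The other 6 were lower in KO. Cyp2a5, a xenobiotic-metabolising cytochrome P450, held 68.5 and 73.1 TPM at ZT4 and 247 and 221 TPM at ZT8 in WT and 1.87, 2.99 and 3.95 TPM in KO (log2 change -5.69, SE 0.20, adjusted p 8.35e-05). Ces1d, a carboxylesterase that hydrolyses lipids and drugs, held 127, 101, 136 and 140.0 TPM in WT and 13.9, 16.6 and 16.8 TPM in KO, a WT mean 7.98 times the KO mean (adjusted p 1.99e-05). Ldhd, the D-lactate dehydrogenase, held 335 to 446 TPM in WT and 108 to 141 TPM in KO (3.17 times, adjusted p 0.000124). Cndp2, a dipeptidase, held 535 to 655 TPM in WT and 145 to 163 TPM in KO (3.86 times, adjusted p 3.03e-05). Nat8f2, of the N-acetyltransferase 8 family, held 15.4 to 17.5 TPM and 4.95 to 5.73 TPM (3.05 times, adjusted p 9.65e-05). Ces1d, Cyp2a5 and Nat8f2 have close relatives in the genome, between which shared reads could be split.

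Rps13, a ribosomal protein gene, shares near-identical sequence with its processed pseudogene Rps13-ps1, and its level is uncertain for that reason. Rps13 was listed at 83.8 to 98.3 TPM in WT and 6.98 to 9.33 TPM in the 3 KO libraries (adjusted p 1.99e-05). Rps13-ps1, named after its values were seen, went the other way, from 0 to 1.34 TPM in WT to 262 to 343 TPM in KO (adjusted p 0.00722). KO ZT4 replicate A sat with WT in both, at 90.03 TPM and 0.416 TPM. Rps13 (chromosome 7, 116331505 to 116334195, minus strand) lies within 10 Mb of Arntl, where 53 of 122 genes tested passed with 7 libraries (43.4%, against 24.8% of all genes). In that window 39 were higher and 14 lower, or 17 and 17 after median-of-ratios scaling, and 12 (9.84%, against 2.53%) had changed by at least 1 log2 unit.

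**Figure D4:**
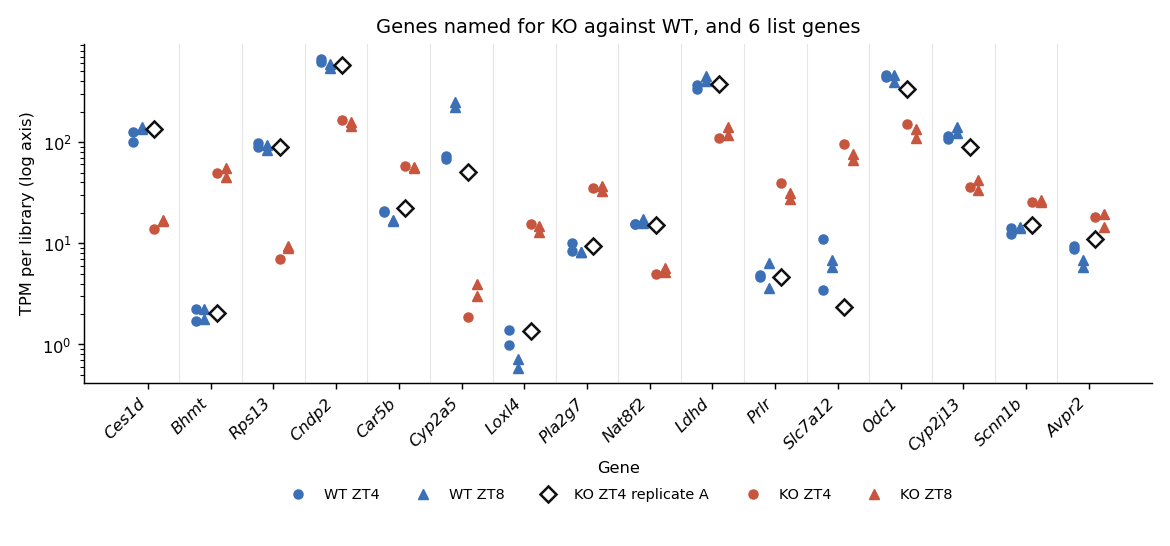
TPM on a log y axis of the 10 protein-coding genes with the smallest p-values in the fit without KO ZT4 replicate A, and of 6 genes from the sex-biased, sodium and water lists; blue is WT, red KO, circles ZT4, triangles ZT8, and the open diamond KO ZT4 replicate A. The diamond lies nearer to the WT points than to the other KO points in each gene, as for Bhmt, where it is at 2.06 TPM and the red points at 44.8 to 56.0 TPM.

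The 16 libraries of the other 4 times, which were not in the fit that gave these genes, offer the same measure in other samples. There 7257 of 12850 genes differed between genotypes (56.5%). Of the 327 genes with a change of at least 1 log2 unit, 317 were tested at those times, 310 had the same sign and 287 passed, 286 of them in the same direction. Bhmt held 38.5 to 88.9 TPM in KO and 0.872 to 1.55 TPM in WT at those times, and Cyp2a5 1.47 to 2.75 TPM in KO and 65.5 to 250.3 TPM in WT.

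The exception was Cyp24a1, the enzyme that breaks down active vitamin D. At ZT4 and ZT8 it was lower in KO, at 7.56, 11.2 and 26.1 TPM against 39.6, 39.3, 60.5 and 45.1 TPM in WT (log2 change -1.91, adjusted p 0.0186). At the other times it was higher in KO (1.42, adjusted p 0.0195), with 2.68 to 75.9 TPM in KO and 2.64 to 17.8 TPM in WT. The daytime call was lost in 4 of the 7 fits with a further library left out, and the test of the difference between the times did not pass (log2 difference -3.41, adjusted p 0.187). Igfbp1, an insulin-repressed growth factor binding protein, had the same pattern, lower by day (-0.73, adjusted p 0.00506) and higher at the other times (1.61, adjusted p 0.00141). Its difference between the times did not pass (log2 difference -2.36, adjusted p 0.182).

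Further genes with large changes were picked after their values were seen. Fgg and Fga, 2 fibrinogen chains, held 33.4 to 51.3 and 35.3 to 54.2 TPM in the 3 KO libraries, 8.86 and 4.94 times their WT means (adjusted p 0.00320 and 0.00803). Aqp8, a water and ammonia channel, held 12.9, 10.7 and 14.0 TPM in KO and 0.720 to 1.54 TPM in WT. Arg2, the mitochondrial arginase, held 15.7, 29.1 and 13.9 TPM in KO and 2.24 to 3.78 TPM in WT, and Slc34a2, a phosphate transporter, 3.87 to 5.57 TPM and 0.585 to 0.689 TPM. Among lower genes Ces1g held 0.663 to 1.16 TPM in KO and 9.76 to 25.1 TPM in WT, Cyp2a4 17.97 to 26.0 TPM and 169 to 367 TPM, and Nat8f5 1.22 to 2.01 TPM and 14.1 to 26.2 TPM. In each of these 8 genes the groups stood apart without KO ZT4 replicate A. The share of all genes with ranges apart was not counted. Each of the 8 passed at the other 4 times in the same direction, where 56.5% of all genes tested passed. Of the genes changed by at least 1 log2 unit, 286 of 317 tested there passed in the same direction.

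Across all function lists, 299 genes were tested. None passed with 8 libraries (limma, 116 with an unadjusted p under 0.05), and 106 passed with 7 (63 higher and 43 lower, against 24.8% of all genes). After median-of-ratios scaling 92 passed, 29 higher and 63 lower, so counts of higher and lower members below are given under both scalings where they differ. Each count, those of cell type markers included, is to be read against the shares of all genes tested. These were 21.1% higher and 3.76% lower as deposited, and 6.02% higher and 6.54% lower after scaling.

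Among 12 clock output genes tested, 6 were higher and 2 lower with 7 libraries, or 4 and 3 scaled by median of ratios, with a median of 0.47 log2 units. Leo1, of the PAF1 elongation complex, held 5.95 and 5.43 TPM at ZT4 and 3.11 and 2.98 TPM at ZT8 in WT and 8.14, 7.68 and 7.18 TPM in KO (0.96, adjusted p 0.00774). Dtx4, a ubiquitin ligase of the Notch pathway, was 2.62 times higher in KO (adjusted p 0.00362), and Lonrf3 3.02 times (adjusted p 0.00430). Tsku, a secreted leucine-rich protein, fell from 5.05 to 13.0 TPM in WT to 3.13 to 4.18 TPM in KO (adjusted p 0.00593). Ndrg1 was unusual in that KO ZT4 replicate A, at 1205 TPM, lay with the other KO libraries at 1214 to 1509.7 TPM and above WT at 1051 and 1001 TPM (ZT4) and 546 and 387 TPM (ZT8). Its call with 7 libraries (1.08, adjusted p 0.0443) was lost after scaling and in 6 of the 7 fits with a further library left out. Slc16a1, a lactate transporter, and Cdkn1a, a cell cycle inhibitor, held 20.2 to 24.4 and 6.68 to 18.3 TPM in KO against 4.55 to 17.2 and 2.33 to 3.62 TPM in WT (adjusted p 0.0266 and 0.0195). WT and KO did not overlap in either gene, and Slc16a1 passed in 2 and Cdkn1a in 4 of those 7 fits. Both genes were picked after their values were seen, and the share of all genes with ranges apart was not counted. The call of Slc16a1 was lost after scaling (adjusted p 0.0660).

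Sodium transport genes that passed were all higher in KO. Of 18 tested, 11 were higher and none lower with 7 libraries (7 and 0 after median-of-ratios scaling), and the median was 0.45 log2 units against 0.156 over all genes. Scnn1b, a subunit of the epithelial sodium channel, held 14.1, 12.4, 14.1 and 14.6 TPM in WT and 25.3, 27.0 and 25.3 TPM in KO, with 15.2 TPM in KO ZT4 replicate A (log2 change 0.89, SE 0.073, adjusted p 0.000742). Scnn1g, a further subunit, was 1.63 times higher (adjusted p 0.00115). Both lie within 10 Mb of Arntl. Hsd11b2, which keeps cortisol-like steroids off the aldosterone receptor, held 49.2 to 61.7 TPM in WT and 82.4 to 96.7 TPM in KO (adjusted p 0.00382). Stk39, the kinase that activates the furosemide- and thiazide-sensitive cotransporters, was 1.45 times higher (adjusted p 0.00345). Kcnj1, the ROMK potassium channel, held 77.0 to 96.7 TPM in KO and 46.2 to 53.6 TPM in WT (adjusted p 0.000719), and Slc12a1, the furosemide-sensitive cotransporter, 320.5 to 392 TPM and 207 to 229 TPM (adjusted p 0.00200). The ranges of WT and the 3 KO libraries did not overlap in these 6 genes, and each kept its call in all 7 fits with a further library left out. They were picked by p-value or after their values were seen, and the share of all genes with ranges apart was not counted.

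Of 9 water transport genes 4 were higher and none lower (2 and 1 after scaling, median 0.35). Over all genes tested 21.1% were higher and 3.76% lower, or 6.02% and 6.54% after scaling. Avpr2, the vasopressin receptor of the collecting duct, held 9.35 and 8.82 TPM at ZT4 and 5.85 and 6.87 TPM at ZT8 in WT and 18.2, 19.3 and 14.4 TPM in KO (log2 change 1.23, SE 0.14, adjusted p 0.00192). Avpr1a, the other renal vasopressin receptor, held 4.56 and 3.69 and 1.57 and 2.12 TPM in WT and 9.30, 6.71 and 8.94 TPM in KO (adjusted p 0.00437). Aqp2, the vasopressin-regulated water channel, held 79.5 to 106 TPM in WT and 114 to 187 TPM in KO (adjusted p 0.0232), a call lost after scaling and without KO ZT4 replicate B, KO ZT8 replicate A or WT ZT8 replicate A (highest adjusted p 0.131). Aqp1, the constitutive channel of the proximal tubule, was higher by 0.30 (adjusted p 0.0478), and did not pass after scaling.

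Markers of the distal nephron share members with these lists, so the 2 are not separate measures. Scnn1g, Hsd11b2 and Slc12a1 are also counted in sodium transport, and Avpr2 and Aqp2 in water transport. Principal cell markers were higher in 5 of 6 (4 after scaling), among them Fxyd4, a sodium pump regulator, at 24.7 to 31.2 TPM in KO and 12.2 to 15.7 TPM in WT (adjusted p 0.00330). They summed to 309.9 to 422.5 TPM in the 3 KO libraries and 204.8 to 250.6 TPM in WT, with 272.9 TPM in KO ZT4 replicate A. Intercalated cell markers were higher in 4 of 5 (2 after scaling), such as Foxi1, their transcription factor (0.67, adjusted p 0.0134). Distal convoluted tubule markers were higher in 2 of 3 under both scalings, Trpm6, a magnesium channel, by 1.13 (adjusted p 0.00647) and Pvalb by 0.68 (adjusted p 0.00350). Thick ascending limb markers were higher in 3 of 4 (2 after scaling), such as Cldn16 (0.50, adjusted p 0.0119), but not Umod (-0.15, adjusted p 0.269). The sums of these markers overlapped, at 1207.8 to 1434.5 TPM in the 3 KO libraries and 1166 to 1345 TPM in WT. Podocyte markers were higher in 3 of 5 (0 after scaling), such as Nphs1 (0.43, adjusted p 0.0124) and Wt1 (0.41, adjusted p 0.0166). Proximal tubule markers were lower in 3 of 8 under both scalings, among them Slc27a2 (-0.41, adjusted p 0.0161) and Slc13a3 (-0.40, adjusted p 0.0235), and their sums overlapped, at 3823 to 4032 TPM in KO and 3845 to 4589 TPM in WT. No endothelial, stromal, macrophage or erythroid marker passed in limma as deposited (1 of 20 with an unadjusted p under 0.05, a stromal one). In bulk tissue fewer cells of a type and less RNA per cell cannot be told apart, and the part of the marker shift in the transport lists was not tested.

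Organic ion transporters, which secrete drugs and urate in the proximal tubule, moved both ways. Of 18, 4 were higher and 6 lower (2 and 8 after scaling), with a median of -0.20. Slc22a6, the anion exchanger OAT1, held 170.1 to 229 TPM in WT and 120.1 to 133 TPM in KO (adjusted p 0.00249). Slco1a6 held 133 to 149 TPM and 73.1 to 83.5 TPM (adjusted p 0.000775), and Abcc2, an efflux pump, 54.7 to 75.6 TPM and 42.3 to 50.5 TPM (adjusted p 0.0220, passing in 2 of the 7 fits with a further library left out). Slco4c1, a basolateral organic anion carrier, was higher by 0.60 log2 units (adjusted p 0.0173), a call lost after scaling.

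**Figure D5:**
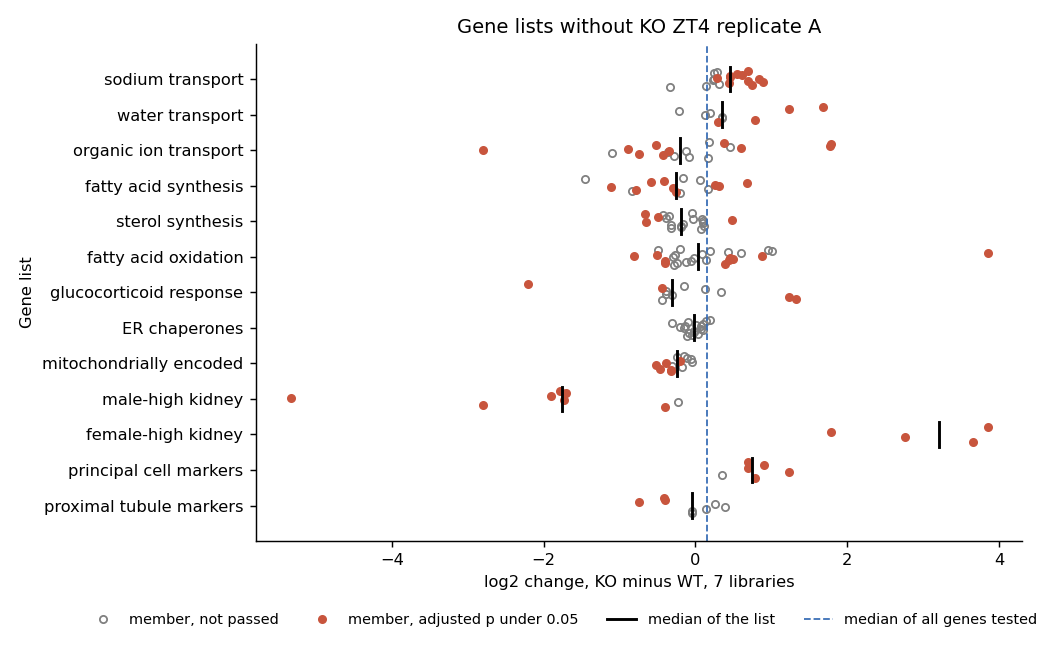
Log2 change of KO minus WT in the fit without KO ZT4 replicate A for the members of 13 gene lists (1 point each, filled where the adjusted p is under 0.05), with the median of each list as a black bar and the median of all genes (0.156) as a dashed line. The medians of sodium transport and principal cell members lie to the right of the dashed line, at 0.45 and 0.74, and those of mitochondrially encoded and male-high kidney members to the left, at -0.25 and -1.76.

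Among lipid synthesis genes more were lower than higher. In fatty acid synthesis 6 of 15 were lower and 3 higher (6 and 1 after scaling), with a median of -0.25. Scd1, the stearoyl-CoA desaturase, held 69.1, 60.7, 68.8 and 69.8 TPM in WT and 32.2, 31.4 and 29.9 TPM in KO, with 62.1 TPM in KO ZT4 replicate A (log2 change -1.11, SE 0.073, adjusted p 0.000344). Me1, which supplies NADPH, was lower, at 119 to 133 TPM against 186 to 197 TPM in WT (adjusted p 0.00199), and Acaca, acetyl-CoA carboxylase, at 2.19 to 3.37 TPM against 4.28 to 6.05 TPM (adjusted p 0.0262, passing in 3 of the 7 fits with a further library left out). Elovl6, a fatty acid elongase, went the other way by 0.68 (adjusted p 0.00878). In sterol synthesis 3 of 19 were lower and 1 higher (7 and 0 after scaling, median -0.18). Sqle and Dhcr7, which act on squalene and on the last step to cholesterol, changed by -0.65 and -0.49 (adjusted p 0.0102 and 0.0152). Sc5d missed the threshold as deposited (-0.39, adjusted p 0.0504) and passed after scaling (adjusted p 0.0184). Cyp51 was higher by 0.48 (adjusted p 0.00583), a call lost after scaling.

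Fatty acid oxidation genes, which fasting raises in many tissues, passed in both directions as deposited and only downward after scaling. Of 26 genes 6 were higher, near the share of all genes (21.1%), and 4 lower, above that share (3.76%). After scaling 0 were higher and 4 lower, against 6.02% and 6.54% of all genes. Their median was 0.032 as deposited and -0.12 after scaling. Cpt1a, which admits fatty acids to mitochondria, changed by -0.39 (adjusted p 0.00719). Hadha and Hadhb, subunits of the trifunctional protein, were higher by 0.45 and 0.49 as deposited (adjusted p 0.0282 and 0.00619) and did not pass after scaling. In glucose handling 3 of 9 were higher (1 higher and 1 lower after scaling, median 0.38). Slc2a1, the glucose transporter GLUT1, held 13.1 to 15.5 TPM in WT and 25.6 to 32.2 TPM in KO (adjusted p 0.000719). G6pc, which releases free glucose, held 106 to 176 TPM and 205 to 253 TPM (adjusted p 0.0372), a call lost after scaling and in 5 of the 7 fits with a further library left out. Slc5a1, a sodium-glucose cotransporter, was higher by 0.41 (adjusted p 0.00995), also lost after scaling, and Slc5a2, its high-capacity relative, did not pass (0.38, adjusted p 0.106). Among 13 FoxO and insulin response genes 1 was higher (Sesn1, 0.36, adjusted p 0.0393) and 1, Igfbp1, lower (0 and 3 after scaling). Sesn1 passed in 1 of the 7 fits with a further library left out. Klf15 and Irs2 changed by -0.26 and -0.65 and did not pass (adjusted p 0.0857 and 0.0852).

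Of 11 glucocorticoid response genes 2 were higher and 2 lower (1 and 2 after scaling), with a median of -0.31. As deposited, the count higher was near the share of all genes (21.1%), while 3.76% of all genes were lower. Tsc22d3, a classic target known as GILZ, held 11.1 and 9.60 TPM at ZT4 and 11.7 and 17.4 TPM at ZT8 in WT and 25.2, 35.3 and 38.5 TPM in KO (log2 change 1.33, SE 0.14, adjusted p 0.00161). Sgk1, a kinase that holds the sodium channel at the membrane, held 19.8 to 25.3 TPM and 35.1 to 78.4 TPM (adjusted p 0.0193), and just missed after scaling (adjusted p 0.0510). Hsd11b1, which regenerates active glucocorticoid, fell from 76.5 to 139.8 TPM in WT to 16.9 to 26.3 TPM in KO (-2.20, adjusted p 0.00820). Among the targets Mt2, a metallothionein, was lower (-0.44, adjusted p 0.0332, passing in 2 of the 7 fits with a further library left out). Dusp1 did not pass (-0.31, adjusted p 0.232).

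As deposited, the counts higher in the lists of this paragraph were near or below the share of all genes tested that were higher (21.1%). The share of all genes that were lower was 3.76%. NAD genes were higher in 3 of 17 (1 after scaling): Kynu, a kynureninase, at 6.56 to 8.59 TPM in KO and 1.57 to 2.26 TPM in WT (adjusted p 0.000809), and Parp1 and Sirt5, which consume NAD, by 0.39 and 0.34 (adjusted p 0.0222 and 0.0390). Sirt5 passed in 0 and Parp1 in 3 of the 7 fits with a further library left out, and neither after scaling. Qprt did not pass (0.22, adjusted p 0.0650). Of 11 genes of the NRF2 list 2 were higher and 2 lower under both scalings. Gsta2, a glutathione transferase, was 2.59 times higher (adjusted p 0.00108) and Nfe2l2, NRF2 itself, higher by 0.49 (adjusted p 0.00501). Gclm, of glutathione synthesis, changed by -0.33 (adjusted p 0.0153), and Hmox1, heme oxygenase, held 9.09 to 12.6 TPM in KO and 16.7 to 19.99 TPM in WT (adjusted p 0.00615). Heat shock and cold-response genes were higher in 2 of 18 and lower in 1 (1 and 3 after scaling). Hspa1a, an inducible HSP70, was 2.01 times higher (adjusted p 0.00989), its near-identical copy Hspa1b did not pass (adjusted p 0.131), Dnajb1 was higher by 0.36 (adjusted p 0.0182), and Hsp90aa1 changed by -0.38 (adjusted p 0.0225). None of 18 ER chaperone genes passed in limma as deposited (3 with an unadjusted p under 0.05), and 2 were lower after scaling, Herpud1 and Dnajb11. Interferon and MHC genes were higher in 2 of 16 (0 after scaling), Bst2 by 0.30 (adjusted p 0.0266). Injury and matrix genes were higher in 3 of 14 (1 higher and 1 lower after scaling). Clu, clusterin, held 186 to 214 TPM in KO and 98.0 to 123 TPM in WT (adjusted p 0.00132), and Spp1, osteopontin, 596 to 754 TPM and 329.8 to 517 TPM (adjusted p 0.0116). Of 12 immediate early genes 1 was higher (Myc, 0.74, adjusted p 0.0352) and 1 lower (Junb, -0.47, adjusted p 0.00777), or 0 and 1 after scaling. Myc passed in 2 of those 7 fits. Of 13 mitochondrially encoded genes 6 were lower (8 after scaling), among them 4 complex I subunits: mt-Nd5 (-0.52, adjusted p 0.0249), mt-Nd3 (-0.47, adjusted p 0.00547), mt-Nd6 (-0.39, adjusted p 0.0174) and mt-Nd2 (-0.33, adjusted p 0.0112).

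Most genes known as higher in male mouse kidney were lower in KO without KO ZT4 replicate A, and those known as higher in female kidney were higher. The labels do not give sex. Y-linked genes (4) summed to 50.9 to 69.1 TPM in all 8 libraries, of which Eif2s3y was higher in KO by 0.38 (adjusted p 0.0116), not after scaling. Xist was looked for and is absent from the gene values, which leave out genes at 0 in every library and transcripts not matched. It was therefore not tested. Of 8 genes known as male-high, 7 were lower in KO without KO ZT4 replicate A, under both scalings, and their median change was -1.76 log2 units. All 4 female-high genes were higher (3 after scaling), with a median of 3.20. Cyp4b1, an androgen-driven cytochrome P450, held 1498, 1752, 1866 and 2320.3 TPM in WT and 448, 456 and 649.6 TPM in KO (-1.90, adjusted p 0.000641). Odc1, the rate-limiting enzyme of polyamine synthesis, held 389.6 to 461 TPM and 109 to 151 TPM (adjusted p 0.000248), Cyp2j13 107 to 142 TPM and 33.9 to 41.9 TPM (adjusted p 0.000218), and Slco1a1, a steroid conjugate carrier, 97.0 to 144 TPM and 10.9 to 25.9 TPM (adjusted p 0.00729). Among the female-high genes, named after their values were seen, Prlr, the prolactin receptor, held 4.90, 4.65, 6.36 and 3.65 TPM in WT and 39.3, 31.5 and 27.4 TPM in KO (2.76, SE 0.20, adjusted p 0.000664). Slc7a12, an amino acid transporter, held 3.42, 11.0, 5.83 and 6.87 TPM in WT and 95.3, 75.8 and 66.2 TPM in KO (adjusted p 0.00647). KO ZT4 replicate A lay within the WT range for Prlr and below it for Slc7a12, at 4.63 and 2.35 TPM.

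Whether the genotype difference changed between ZT4 and ZT8 was tested as an interaction. With 8 libraries 5 of 12915 genes passed (0.0387%, 610 with an unadjusted p under 0.05), and 4 of them were among the 6 that passed without KO ZT4 replicate A. The count was 44 without KO ZT4 replicate B, 15 without KO ZT8 replicate B, 12 without WT ZT8 replicate B and 9 without WT ZT4 replicate B or KO ZT8 replicate A. Pdk4, the kinase that turns pyruvate away from oxidation in fasting, held 13.1 and 14.1 TPM at ZT4 and 6.75 and 6.01 TPM at ZT8 in WT. KO ZT4 libraries held 8.76 (replicate A) and 6.60 TPM (replicate B), and KO ZT8 libraries 33.9 and 28.8 TPM. Pdk4 was thus lower at ZT8 than at ZT4 in WT and higher in KO (log2 difference 3.10, SE 0.23, adjusted p 0.00282, and 3.31 without replicate A, adjusted p 0.00743). For Arntl the difference was 2.89 (adjusted p 0.0242), and did not pass without replicate A (adjusted p 0.117). The other 3, Gm10961, Gm16356 and Gm17416, had both libraries of a genotype and time listed at 0. Gm10961 was listed at 0 in WT ZT4 and KO ZT8 and held 5.66 to 12.0 TPM in the other 4 libraries, and Gm16356 was listed at 0 in WT ZT8 and KO ZT4.

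Whether the difference at ZT4 and ZT8 was particular to those times was tested against the mean of ZT12, ZT16, ZT20 and ZT0, with all 24 libraries. In all, 5 of 12874 genes passed (0.0388%, 1571 with an unadjusted p under 0.05), and 1 of them, Nmrk1, was among the 5 that passed without KO ZT4 replicate A. The count was 344 without KO ZT4 replicate B, 3 without WT ZT4 replicate A, and 0 without WT ZT4 replicate B, WT ZT8 replicate A or either KO ZT8 library. Without KO ZT4 replicate A the 5 included Cry1 (log2 difference 2.18, SE 0.21, adjusted p 0.000497) and Nr1d1 (-2.51, adjusted p 0.00114), whose genotype differences were larger by day, and neither passed with that library (adjusted p 0.444 and 0.259). Cry1 held 2.17 to 6.64 TPM in WT and 13.1 to 17.8 TPM in KO at the other times, so WT was lower by day and KO near its levels at the other times. Hsd3b3, a steroid dehydrogenase, held 41.5, 42.0, 49.3 and 55.2 TPM in WT at ZT4 and ZT8 and 48.1 (ZT4 replicate A), 34.3, 32.3 and 35.6 TPM in KO. At the other times it held 52.5 to 82.2 TPM in WT and 11.2 to 33.2 TPM in KO, so the genotypes were closer by day (log2 difference 1.28, SE 0.20, adjusted p 0.0444). Rdh5, a retinol dehydrogenase, held 18.2 to 22.1 TPM in WT and 16.1 to 16.6 TPM in the 3 KO libraries at these times, and 17.3 to 25.6 TPM and 8.88 to 14.7 TPM at the others (0.75, adjusted p 0.0444). Slc9a8, a sodium-proton exchanger, and Nmrk1, a nicotinamide riboside kinase, showed the same (0.81 and 0.56, adjusted p 0.0442 for both). Slc41a1, a magnesium transporter, had a difference of -0.79 (adjusted p 0.0444). Without KO ZT4 replicate A, Hsd3b3, Rdh5, Slc41a1 and Slc9a8 had adjusted p-values of 0.0947, 0.0901, 0.0944 and 0.0625, none under 0.05.

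Against ZT12 and ZT16 alone, 44 genes passed (0.342%), 18 without KO ZT4 replicate A, with 13 in common. Npas2 differed less between genotypes by day than at dusk (log2 difference -2.75, adjusted p 0.0265, and -2.33, adjusted p 0.00919, without that library). Without it Cry1 differed more by day (1.89, adjusted p 0.00548), and with it Cry1 did not pass (adjusted p 0.516).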

How the data were processed

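Kidney poly(A) RNA was quantified by the authors as TPM (transcript abundance corrected for length and scaled to the library total) per transcript; kallisto 0.42.4 and build mm10 are named per the submitters' processing notes, and the transcript index is not given in the sources used here. The deposited TPM values were summed per gene with GENCODE M21 (86119 of 88198 transcripts matched). Depth cannot be recovered from TPM. Genes averaging 1 TPM or more in the fitted libraries were tested on log2(TPM + 0.1) with limma 3.58.1 in R 4.3.3 (trended, robust eBayes), Benjamini-Hochberg adjustment over all genes tested, threshold 0.05. Fits held time as a covariate, or 12 groups of genotype and time for the 24 libraries. They were run on simulated data with independent noise, in which 200 genes changed by 1 log2 unit alike in the KO libraries concerned. The genotype fit recovered 79.5% of these genes, the interaction 15.5% and the test against the other times 82%. No simulated library went against its label and none was shifted in scale, so the simulation does not cover these features of the data. The labels do not say what the replicate letters mean, and the main fits did not pair libraries by them. Between genotypes, the differences of A minus B correlated across genes at -0.013 at ZT4 and -0.058 at ZT8. The ZT4 value rests on KO ZT4 replicate A, so these values do not settle whether letters pair libraries.

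Members and gene lists were chosen with earlier results of these data known. Named genes are Arntl, the clock list, the smallest p-values with and without KO ZT4 replicate A, genes passing the interaction or the test against other times, and up to 4 members per list by p-value with 8 libraries. Of the rest, Kcnj1, Ndrg1, Slc16a1, Cdkn1a, Cyp24a1, Mt2 and those said to be picked later were chosen after their values were seen. Some members of these lists are counted with their list but not reported here by name. Alternatives were other pseudocounts, filters, scalings and eBayes settings, each library left out, and a replicate block.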

Additional observations from a re-analysis of the deposited data

Results flagged for a closer look

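In 60 groups of 4 libraries, the gap of the highest or lowest library to its neighbour was compared with the range of the group and set against Dixon's critical value at the 95% level. Chance passes about 1 in 20 groups. There were 14 such values, and 11 of them belonged to KO ZT4 replicate A. In the clock list they were Cry1 (1.03 TPM), Nr1d1 (23.8 TPM) and Nr1d2 (14.7 TPM). Outside it they were Ces1d (133.6 TPM), Rps13 (90.03 TPM), Cndp2 (577.1 TPM), Car5b (22.1 TPM), Cyp2a5 (50.3 TPM), Pla2g7 (9.38 TPM), Nat8f2 (15.1 TPM) and Ldhd (371.4 TPM). These 8 are among the 10 genes named for the smallest p-values in the fit without this library, a choice that favours genes in which the other 3 KO libraries lie together, so nothing is read from their number against the chance rate. In each gene the other 3 KO libraries lay together and this one stood apart from them. The remaining values were Gm16053 in WT ZT8 replicate A (10.2 TPM), Mrps36-ps2 in WT ZT4 replicate B (0.129 TPM) and Pla2g7 in WT ZT4 replicate B (9.96 TPM).

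The genotype difference differed between ZT8 and ZT4 by limma's interaction test in 5 genes. The log2 differences were -12.33 for Gm10961, 12.40 for Gm16356, 5.29 for Gm17416, 3.10 for Pdk4 and 2.89 for Arntl. For the Gm genes the size rests on libraries listed at 0 and on the pseudocount. The genotype difference at ZT4 and ZT8 differed from that at the other 4 times in 5 genes, by 0.81 for Slc9a8, 0.56 for Nmrk1, 0.75 for Rdh5, 1.28 for Hsd3b3 and -0.79 for Slc41a1.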

How the results depend on the processing

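The 3 genes called with 8 libraries became 0 with a pseudocount of 1 or a mean of at least 5 TPM, 5 with the replicate block, 6 with the replicate block by pair, 2449 in a fit of all 24 libraries, 5 at ZT4 alone and 44 at ZT8 alone. Leaving out each library in turn gave 0 to 3211, the highest without KO ZT4 replicate A. Without that library, by alternatives added after seeing the data, the count was 1624 with median-of-ratios scaling, 1481 without the 20 most abundant genes, 3095 with the replicate block, 4276 with 24 libraries, 269 at ZT4 and 1353 at ZT8. Letters A and B share no stated source, and the replicate block is given only here. List genes called went from 0 with 8 libraries to between 0 and 106 on leaving out each library, 68 with 24 libraries and 11 at ZT8 alone. Without KO ZT4 replicate A they came to 92 with median-of-ratios scaling, 96 without the 20 most abundant genes, 109 with the replicate block, 106 with 24 libraries, 25 at ZT4 and 75 at ZT8.

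The interaction count of 5 became 14 with a pseudocount of 1, 20 with no filter, 1 with a mean of at least 5 TPM, 3 with median-of-ratios scaling, 14 with plain eBayes, and 6 to 44 on leaving out a library. The count of 5 against the other 4 times became 2 with a pseudocount of 1, 15 with no filter, 1 with median-of-ratios scaling, 0 without the 20 most abundant genes, with plain eBayes or with the replicate block, 0 to 344 on leaving out a library, and 44 against ZT12 and ZT16 (18 without KO ZT4 replicate A).

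Of 3902 alternatives over 144 gene results, 3050 kept direction and side of the threshold, 738 passed newly, 92 no longer passed and 22 reversed; 112 genes passed newly on leaving out KO ZT4 replicate A alone. The reversals touched 7 genes, none of which passed with 8 libraries, and their cause was not tested. Arntl was at -0.11 at ZT4 without KO ZT4 replicate A. Hlf was at -7.4e-04 with that scaling by median of ratios, -0.11 without WT ZT4 replicate B, -0.20 to 0.36 over all libraries left out in turn, and -0.40 at ZT8 alone, with or without KO ZT4 replicate A. Per1 was at 0.015 without KO ZT4 replicate A, 0.022 without WT ZT8 replicate B, 0.17 at ZT4 alone, 0.43 at ZT4 without KO ZT4 replicate A and 0.085 with 24 libraries without it. Bhlhe40 was at 0.38 at ZT4 alone and 0.65 without KO ZT4 replicate A. Per2 was at 0.039 without WT ZT4 replicate A, 0.088 without KO ZT8 replicate A, -0.22 to 0.22 over all libraries left out in turn, 0.27 at ZT4 alone and 0.12 there without KO ZT4 replicate A. Slc13a3 was at 0.0061 at ZT4 alone. Umod was at -0.15 to 0.024 on leaving out each library, 0.17 at ZT4 alone and 0.047 there without KO ZT4 replicate A.

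Depth is unknown, so no counting error can be given, and with 2 libraries a group, 1 of which went against its label, a gene that did not pass is not shown to be alike in KO and WT.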

Other observations

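Several genes not described above also separated the genotypes once KO ZT4 replicate A was set aside. They were chosen after their values were seen. Some were already counted with their lists: Acsm3, Cyp4a12a and Kap among the 7 male-high genes that were lower, and Cyp4a14 and Abcc3 among the 4 female-high genes that were higher. Abcc3 was also counted in organic ion transport. Acsm3, a mitochondrial medium-chain acyl-CoA synthetase, held 1255, 1046, 898 and 941 TPM in WT and 254, 299.7 and 343 TPM in KO (adjusted p 0.000883), with 1199.6 TPM in KO ZT4 replicate A, and lies within 10 Mb of Arntl. Among fatty acid omega-hydroxylases, Cyp4a12a held 26.2 to 110.2 TPM in WT and 0.966 to 4.15 TPM in KO (adjusted p 0.0117), while Cyp4a14 was higher in KO, at 72.8 to 264 TPM against 3.72 to 17.8 TPM (adjusted p 0.0319, and 0.0518 after median-of-ratios scaling). These Cyp4a genes have close relatives between which reads could be split. Kap, the androgen-regulated kidney protein, held 34013 to 37307 TPM in WT and 25173 to 31169 TPM in KO (adjusted p 0.0117).

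Slc22a26, of the organic anion transporter family, held 5.35 to 7.71 TPM in WT and 0.806 to 1.19 TPM in KO (adjusted p 0.000404), and Abcc3, an efflux pump of the same broad class of substrates, 0.574 to 1.22 TPM and 1.96 to 5.60 TPM (adjusted p 0.0198). Angptl7, a secreted angiopoietin-like protein, held 2.67 to 5.08 TPM and 0.270 to 0.592 TPM (adjusted p 0.00170). Alb, a hepatocyte marker that is low in kidney, held 1.87 to 2.85 TPM and 0.316 to 0.463 TPM (adjusted p 0.000404). All 8 genes passed at the other 4 times in the same direction. There 56.5% of all genes tested passed in either direction. Of the genes changed by at least 1 log2 unit, 286 of 317 tested there passed in the same direction, so nothing is read from this count.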
